A study of Homo sapiens with 29 samples.

Results

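In mitochondria of HEK293 cells, RNA recovered with an antibody against hnRNPA1 was compared with RNA recovered with normal IgG, and the authors' deposited list for that compartment holds 1672 windows in 1169 genes, of 16198 windows in the lists of 3 compartments. Every window of the mitochondrial list was taken, with the gene that the list names for it. The labels give 4 mitochondrial libraries made with hnRNPA1 antibody and 3 made with IgG, and no source used here states how the IgG libraries entered the list. The lists for whole cells (3 hnRNPA1 and 3 IgG libraries in the labels) and cytosol (4 hnRNPA1 and 4 IgG libraries) were used for comparison. In a separate arm, RNA of whole cells given siRNA against hnRNPA1 (hnRNPA1_siRNA, 4 libraries) or control siRNA (4 libraries) was sequenced. All cells were HEK293, an embryonic kidney cell line, and the RIP cells carried no treatment per the labels. The labels do not say how mitochondria were isolated, which sample was the 1 that gave a poor library, or whether each library is a culture of its own. The p-values below therefore reflect the spread between libraries, which may be technical.

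hnRNPA1 is an abundant RNA-binding protein of the nucleus that packages nascent transcripts, takes part in the choice of splice sites and moves between nucleus and cytoplasm. It binds short UAGG-like elements and is also known for its part in the processing of some microRNA precursors. Human mitochondria have a circular chromosome that is transcribed from both strands into long precursors, from which rRNAs, mRNAs and tRNAs are cut. Most mitochondrial proteins are encoded in the nucleus, and some of their mRNAs are translated at the outer mitochondrial membrane. RNA immunoprecipitation (RIP) recovers RNAs that come down with a protein and does not by itself show direct contact.

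Sequences are given for the microRNA genes that lie under windows of the list, because a hairpin is the one kind of precursor here whose exact sequence could be placed in a window. Of the RefSeq hairpins (GRCh38.p14), 5 lay under 5 windows, and 3 of these windows were on the strand of the hairpin. A window of the unnamed gene ENSG00000265394 (chr17:30116866-30117366, minus strand, signal value 2.66) held the hairpin of MIR3184 on its own strand and that of MIR423 on the opposite one, and the hairpins overlap on opposite strands. Capitals mark the mature arms.
MIR3184 hairpin: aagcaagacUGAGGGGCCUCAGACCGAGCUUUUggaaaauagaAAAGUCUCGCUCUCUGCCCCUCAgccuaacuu
MIR423 hairpin: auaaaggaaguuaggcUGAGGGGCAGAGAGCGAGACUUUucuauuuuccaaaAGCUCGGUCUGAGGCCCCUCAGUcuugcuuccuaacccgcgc
The 5p products of both share their seed, bases 2 to 8, shown in capitals in the mature sequences.
hsa-miR-3184-5p: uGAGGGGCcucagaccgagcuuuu
hsa-miR-423-5p: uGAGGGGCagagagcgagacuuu
A second shared seed occurred in MIR4647, under a window of SLC35B2 (chr6:44254096-44254596, minus strand, signal value 0.95), and MIR4426, which lay opposite a window of ENSG00000285280 (chr1:192716286-192716786, minus strand, signal value 2.13).
hsa-miR-4647: gAAGAUGGugcugugcugaggaa
hsa-miR-4426: gAAGAUGGacguacuuu
The fifth hairpin, MIR198, lay under a window of FSTL1 (signal value 0.76) and opposite one of BTNL12P (0.80). A window is longer than any of these hairpins, so it does not show that the hairpin itself was recovered.

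The start and end of each window are 500 bases apart, and counts of bases below include both end positions. A window carries the peak caller's signal value, p and q, which are the authors' own. No source used here gives the scale of the signal value, and it serves only to rank windows within the list. It ran between 0.70 and 4.15 with a median of 1.25. The lowest value was 0.70 in the whole-cell and cytosolic lists too, and whether this was a cut for entry is not stated. All q-values were under 0.05, and 923 windows (55.2%) had a q of at most 0.005. Of the 1169 genes, 893 (76.4%) had a single window and 26 had 5 or more. With 1 list for all libraries of a compartment there is no value per RIP library. The depth of the RIP libraries and their spread are thus unknown, and no test of a window was possible here.

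By RefSeq class, 905 genes of the mitochondrial list (77.4%, Wilson 95% interval 74.9% to 79.7%, counting error only) were protein-coding. Long noncoding RNAs made up 57 genes (4.88%), pseudogenes 38 (3.25%) and genes of the mitochondrial chromosome 23 (1.97%), and 146 (12.5%) had no RefSeq entry. No gene of a small noncoding RNA was in the list outside the mitochondrial tRNAs, against 19 such genes in the whole-cell list and 83 in the cytosolic list. Windows on the mitochondrial chromosome made up 1.79% of the mitochondrial list (30 windows), 0.215% of the whole-cell list (28 windows) and 0.132% of the cytosolic list (2 windows). The lists differ in length and the compartments in their number of libraries, so these are shares of what was called and not amounts of RNA.

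Both mitochondrial rRNA genes were in the list. MT-RNR2, the 16S rRNA of the large subunit of the mitochondrial ribosome, had 3 windows with signal values of 0.72, 0.93 and 1.17. The window at 1.17 (3171 to 3671) has only 59 bases in MT-RNR2 and 365 in MT-ND1. MT-RNR1, the 12S rRNA of the small subunit, had 1 window at 0.73. This window and the MT-RNR2 window at 0.72 lie close to the lowest value of the list, 0.70. Windows named for their neighbouring tRNA genes scored higher: the MT-TF window (positions 577 to 1077, 2.66) has 71 bases of the tRNA and 430 bases of MT-RNR1, and the MT-TV window (1602 to 2102, 1.89) has 432 bases of MT-RNR2. Windows of the list on the plus strand thus covered 92.7% of MT-RNR1 and 68.0% of MT-RNR2.

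Of the 13 mRNA genes of the mitochondrial chromosome, 9 had 14 windows of their own. MT-ND5, a subunit of complex I, had 4 adjacent windows with signal values of 1.16, 0.90, 0.86 and 2.59, in order along the gene, and was covered in full. MT-ND4, another complex I subunit, had 3 windows at 0.87, 0.71 and 1.04 and was also covered in full. The highest signal value on the chromosome, 3.09, belonged to a window named for MT-ND2 (positions 5470 to 5970). Only its first 42 bases lie in MT-ND2, 135 lie in MT-TW and MT-CO1 on the same strand, and 274 lie opposite the tRNA genes MT-TA, MT-TN, MT-TC and MT-TY. MT-CO1, a catalytic subunit of complex IV, had 1 window at 1.63, of which 42 bases lie in MT-CO1 and 319 in MT-CO2. MT-CYB of complex III stood at 1.75, MT-CO3 at 1.03, MT-ATP8 of the ATP synthase at 0.87, MT-ND3 at 0.80 and MT-ND1 at 0.73. The MT-CYB window has 141 bases in MT-CYB and 226 outside any gene. The MT-ATP8 window has 207 bases in MT-ATP8 and 340 in MT-ATP6, which overlap. MT-CO2, MT-ATP6, MT-ND4L and MT-ND6 had no window of their own, but windows named for other genes covered 46.6% of MT-CO2, 50.1% of MT-ATP6 and all of MT-ND4L. MT-ND6, the one mRNA gene on the minus strand, had no window over it on its strand, while the last MT-ND5 window (13837 to 14337, 2.59) has 189 bases opposite it.

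Of the 22 mitochondrial tRNA genes, 12 had a window, 10 of them on the plus strand. After MT-TF (2.66) the highest were MT-TI (1.95), MT-TV (1.89), MT-TE (1.77) and MT-TL2 (1.56), and the rest lay between 0.95 and 1.39. A tRNA gene fills at most 75 bases of the window of its name, and most of the remainder lies in other genes or opposite them. In all, 17 of the 30 windows had under 50% of their bases in the gene they are named for. Their median signal value was 1.39, against 0.87 for the other 13. The window names therefore do not say which RNA carried the signal on this chromosome.

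The strands were covered unequally. Windows of the mitochondrial list took up 10159 bases of the plus strand, on which most of the genes lie, and 1002 bases of the minus strand, in the MT-TY and MT-TE windows. The whole-cell list covered 7362 and 2744 bases of the plus and minus strand. The whole-cell list had windows for 21 of 22 tRNA genes, 8 of them on the minus strand. None was named for MT-ND1, MT-ND2, MT-ND4, MT-ND5 or MT-CO3. Whole-cell windows named for other genes nevertheless covered 44.4%, 41.6%, 15.3%, 23.7% and 40.9% of these genes, in that order. Of the 30 windows, 26 (86.7%) overlapped a whole-cell window on the same strand and 5 (16.7%) a cytosolic one. Among windows in protein-coding genes of the nucleus the share that overlapped a whole-cell window was 8.06%. These shares are not comparable. Whole-cell windows covered 45.3% of the plus strand between the first and last gene of this short chromosome, so most windows there would share a base with one.

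**Figure D1:**
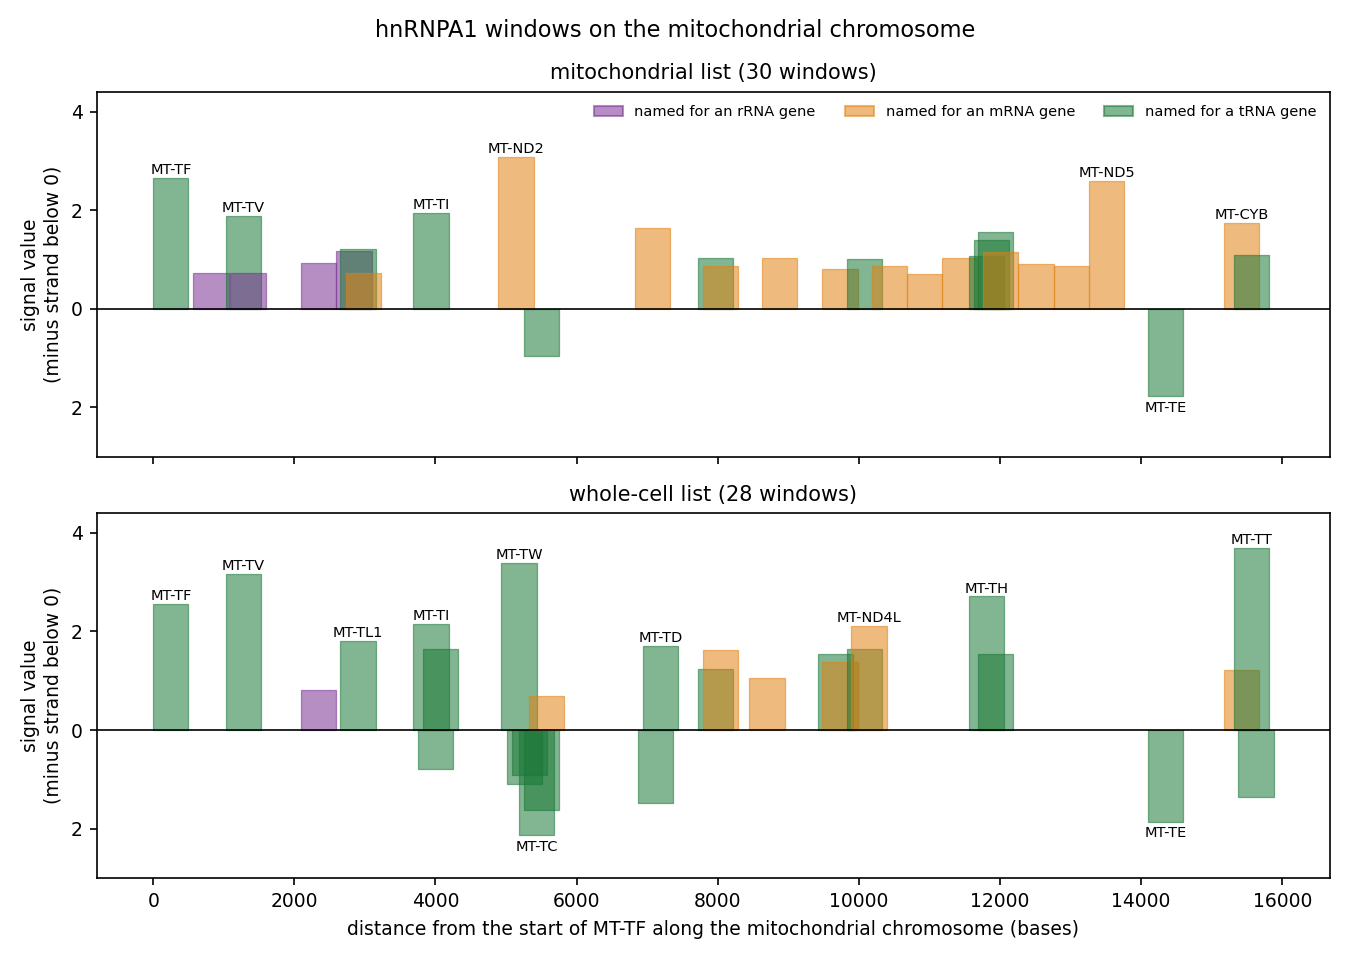
Windows on the mitochondrial chromosome in the mitochondrial list (30 windows, top) and the whole-cell list (28 windows, bottom), by distance in bases from the start of MT-TF. Bar height is the authors' signal value, drawn upward for the plus and downward for the minus strand, and colours give the kind of gene a window is named for. Heights rank windows within a panel and are not to be compared between panels. Windows named for MT-ND4 and MT-ND5 occur in the top panel only, although windows named for other genes cover parts of both in the bottom panel. On the minus strand 2 windows stand in the top panel against 8 below.

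Outside the mitochondrial chromosome the highest signal values belonged to genes of several kinds. ADCY8, an adenylyl cyclase, led with 4.15 (chr8:130884301-130884801, minus strand), followed by ENSG00000250697 (3.40), the antisense RNA gene COL4A2-AS2 (3.22) and FNDC10 (3.20). ATP5IF1, the inhibitor of the mitochondrial ATP synthase, came next with 3.11 (chr1:28237609-28238109, plus strand). CDK2AP1 (3.02), which encodes a partner of CDK2, ATP5MJ (2.79), a small subunit of the ATP synthase, H4C9 (2.79), a histone H4 gene, and ENSG00000228566 (2.77) completed the first 10 together with MT-ND2. ADCY8, ENSG00000250697, COL4A2-AS2 and ENSG00000228566 are not among the genes of the expression table. Of the 50 highest windows, 16 (32%) lay in genes without a value there, against 104 of the 872 lowest (11.9%). Ranks 11 to 15 were held by HNRNPA1L3, FTH1P16, RPS15P4, RPL26P19 and ENSG00000267458, and HNRNPA1L3 and the 3 genes after it are copies of expressed genes, so their reads may be split or shared with the parent genes.

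Nuclear genes for mitochondrial proteins were unevenly represented. Among all 15267 genes tested in the knockdown arm, 976 (6.39%) had a window in the mitochondrial list. Of the 44 tested subunits and factors of complexes II to V, 10 (22.7%) had one. Of 37 tested nuclear subunits of complex I, 2 had one (5.41%), NDUFS5 at 1.11 and NDUFB10 at 0.85. The share in the whole-cell list was 40.9% for complexes II to V and 51.4% for complex I, against 39.2% of all genes tested.

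Within complexes II to V, 7 of the 10 genes belong to the ATP synthase. After ATP5IF1 and ATP5MJ they were ATP5PD (1.52), ATP5F1A with 3 windows (0.89 to 1.28), ATP5MF (1.23), ATP5PB with 2 windows (0.93 and 1.14) and ATP5MC3 (1.03). COX7B (1.51) and COX4I1 (1.23) encode subunits of complex IV and UQCR10 (1.10) one of complex III. The ATP5MF window overlapped a window of CPSF4 on the opposite strand. The ATP synthase was not a list of its own, and its count was noted after its values were seen.

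The shares of the other lists of mitochondrial proteins lay above and below the 6.39% of all genes tested. Of 80 tested proteins of the mitochondrial ribosome, 8 (10.0%) had one, with MRPL32 at 2.59, MRPL10 at 1.84 and MRPS25 at 1.64. Of 48 genes of protein import and chaperones, 4 (8.33%) had one: TIMM17A (1.57) and TIMM13 (1.06), which take part in import across or into the inner membrane, CHCHD4 (1.56), which oxidises proteins in the intermembrane space, and AFG3L2 (1.36), a protease subunit. Of 55 factors of mitochondrial gene expression, 3 (5.45%) had one, FASTKD5 (1.57), RPUSD3 (1.20) and PDE12 (0.98). The carriers and channels had 1 of 50 (SLC25A16, 1.18) and the citric acid cycle list 1 of 26 (ME2, 1.28). In the whole-cell list 21 of the 26 genes of the citric acid cycle list had a window.

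The lists of RNA-binding protein genes had larger shares with a window, in the mitochondrial and the whole-cell list alike. In the whole-cell list they were 82.8% for hnRNP, 77.8% for SR protein and splicing and 90.3% for stress granule genes, against 39.2% of all genes tested. The counts that follow are those of the mitochondrial list. Of 29 tested hnRNP genes, 13 (44.8%) had a window, 41 windows in all. HNRNPU, which encodes a chromatin-associated hnRNP protein, had 13 windows with signal values between 0.79 and 2.29. HNRNPA1 itself had 3 windows (0.83 to 1.55, the highest at chr12:54285693-54286193, plus strand). Its copy HNRNPA1L3 stood at 2.76, HNRNPH1 at 1.83 and RBMX at 1.74. Of 36 genes of SR proteins and splicing regulators, 14 (38.9%) had a window, among them SRSF12 (1.93), CLK4 (1.68), a kinase of SR proteins, the RNA helicase gene DDX17 (1.5) and SRSF1, with 4 windows that reached 1.30. Of 31 genes of stress granule proteins, 10 (32.3%) had one, among them IGF2BP3 (1.90) and TIA1 (1.56).

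Endoplasmic reticulum and cytoskeleton genes were also frequent. Of 43 genes of the translocon, the oligosaccharyltransferase and the chaperones of the endoplasmic reticulum, 14 (32.6%) had a window in the mitochondrial list, 30 in the whole-cell list and 2 in the cytosolic list. The highest were RPN1 (1.67), RPN2 (1.66) and DDOST (1.62), subunits of the oligosaccharyltransferase, and SEC63 (1.65) of the translocon. Of 28 cytoskeleton genes, 11 (39.3%) had a window, with VIM, the vimentin gene, at 2.11 and ACTN4 at 1.53, and 19 had one in the whole-cell list. Of 35 translation factors, 11 (31.4%) had one, with EIF3A at 1.41 and EEF1A1 at 1.17, and of 19 glycolysis genes 6 (31.6%), with GPI at 1.90 and GAPDH at 1.21. Proteins of the cytosolic ribosome had 9 of 33 for the small subunit (27.3%, led by RPS4X at 1.84 and RPS2 at 1.75) and 8 of 47 for the large one (17%, led by RPL10 at 1.61).

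Nuclear RNAs were present as well. In a list of 30 tested genes made up mostly of nuclear-retained and abundant long noncoding RNAs, 12 had a window. JPX (6 windows, up to 2.19) and FTX (9 windows, up to 1.89) are noncoding genes beside XIST. NEAT1, the scaffold of paraspeckles, had 4 windows up to 1.46, the imprinted antisense RNA KCNQ1OT1 had 3 up to 1.47, and MALAT1, a nuclear speckle RNA, had 1 at 1.04. Of 12 genes of 7SL, 7SK, Y, vault and BC200 RNAs none had a window, against 5 in the whole-cell list. Of 51 tested replication-dependent histone genes, 2 had one (H4C9 and H2BC11, 2.46). How much RNA of the nucleus, the endoplasmic reticulum or the cytosol was in the mitochondrial fraction has no value in these data, and its part in these counts was not tested.

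**Figure D2:**
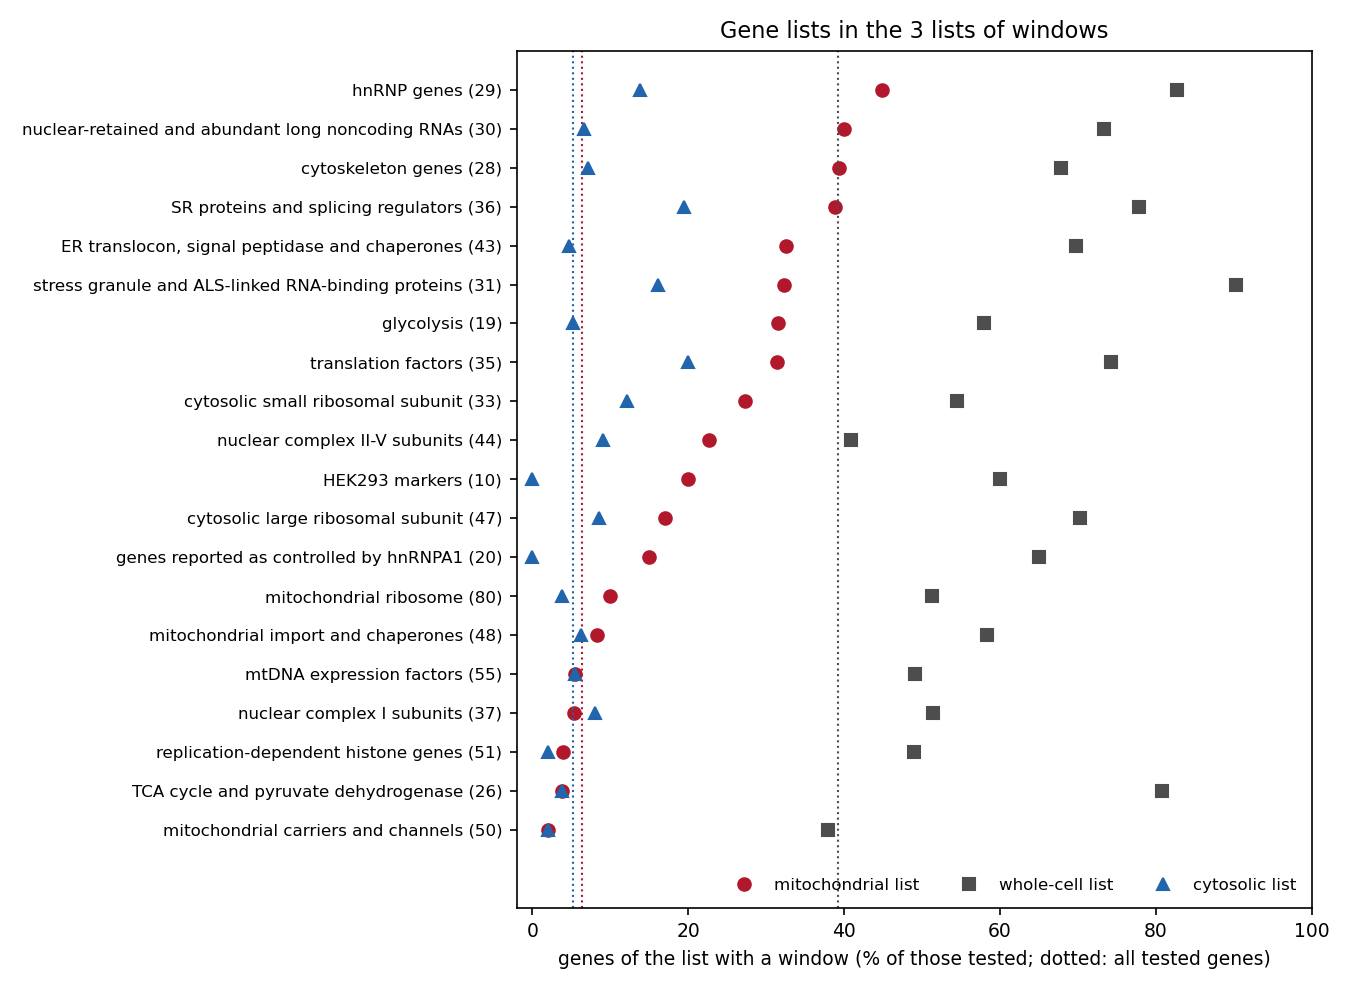
Percent of the tested genes of each list that had a window in the mitochondrial (circles), whole-cell (squares) and cytosolic (triangles) list, with the number of tested genes in parentheses. Dotted lines give the share of all tested genes, 6.39%, 39.2% and 5.17% in that order. The lists of RNA-binding, cytoskeleton and endoplasmic reticulum genes stand far to the right of the mitochondrial line, and those of complex I and the citric acid cycle lie left of it. The squares of the RNA-binding, cytoskeleton and endoplasmic reticulum lists also lie right of the whole-cell line.

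The gene with the most windows was XIST, the long noncoding RNA that coats the inactive X chromosome. Its 22 windows lay in 6 blocks over 27.5 kb, the widest gaps being 8 and 4 kb, and had signal values between 0.70 and 2.23. XIST had 4 windows in the whole-cell list and none in the cytosolic list. TSIX, the gene antisense to XIST, had 9 windows (0.82 to 1.66), of which 5 overlapped XIST windows on the opposite strand. Its control mean was 28.4 normalised reads, against 148478 for XIST. Together with FTX and JPX the locus held 46 of the 131 windows on the X chromosome, which took up 7.83% of the mitochondrial list, 3.75% of the whole-cell list and 3.62% of the cytosolic list.

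**Figure D3:**
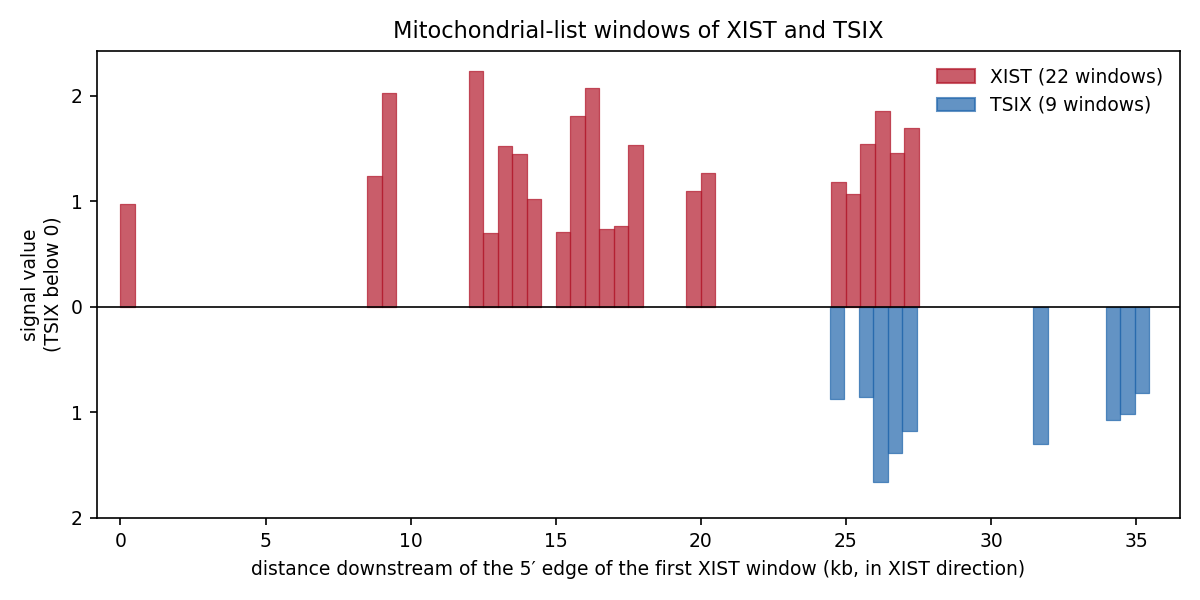
Windows of XIST (22, upward) and TSIX (9, downward) in the mitochondrial list by distance in kb from the first XIST window, in the direction of XIST. Bar height is the authors' signal value. XIST windows form 6 blocks with gaps of up to 8 kb between them and reach 2.23, and 5 TSIX windows mirror the last XIST block.

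After XIST and HNRNPU came DNAH14, an axonemal dynein gene, and SMC1A, a cohesin subunit gene, with 10 windows each. ZNF638 had 8 windows, all within 7.5 kb, and ENSG00000130723, FADS2, a fatty acid desaturase gene, ZNF711 and NRG3 had 7 each. DNAH14 and NRG3 windows were spread over 160.5 kb and 222.5 kb, while the 7 FADS2 windows lay within 6 kb. Whether a window falls in an exon or an intron was not analysed here.

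Some windows overlapped another window of the list on the opposite strand. This held for 169 windows (10.1%) in 67 gene pairs, against 13.3% of whole-cell and 4.08% of cytosolic windows. Beside TSIX with XIST and FTX with JPX, the pairs included CSNK1D with SLC16A3. CSNK1D had 5 windows in this overlap and a control mean of 550.1 normalised reads, and SLC16A3 had 4 and a control mean of 9.27. A window of ENSG00000267458 (2.68) lay opposite one of CALR (0.99). The libraries were made with a stranded kit, but no source used here states whether reads were assigned by strand, so the reads of such a pair cannot be told apart.

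Few windows recurred in the other compartments at the same place, although most genes had a window somewhere in the whole-cell list. By at least 1 shared base on the same strand, 196 of the 1672 windows (11.7%) overlapped a whole-cell window and 59 (3.53%) a cytosolic one, and 1430 (85.5%) overlapped neither. From the other side, the overlap took in 1.74% of the whole-cell windows and 3.82% of the cytosolic ones. By gene, 827 of the 1169 (70.7%) also had a window somewhere in the whole-cell list and 137 (11.7%) in the cytosolic list, which are 11.9% and 10.3% of the genes of those lists. Of all genes tested in the knockdown arm, 39.2% had a whole-cell window and 5.17% a cytosolic one. Among tested genes with a control mean of 1081 to 1832 normalised reads these shares were 71.0% and 8.79%. The median control level of mitochondrial-list genes, 1252, lies in that range, but their levels spread well beyond it and 185 of them have no level. The shared genes were not matched for level. Genes of the mitochondrial list alone numbered 306 (26.2%). The 13 windows that overlapped windows of both other lists included MT-TV (1.89), RPL10 (1.61), RPLP2 (1.43) and 2 adjacent windows of NEAT1 (1.46 and 0.89). Across the 827 shared genes the highest signal values of the mitochondrial and whole-cell lists had a Spearman correlation of 0.03, and across the 137 genes shared with the cytosolic list of 0.07 (across genes, which are not independent).

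In protein-coding genes windows were most frequent in the last part of the gene span and seldom lay at its start. The position could be placed for 511 windows (39.2% of those in protein-coding genes) in 382 genes, those whose window grid starts where the RefSeq gene starts. Of these, 257 (50.3%, Wilson 95% interval 46.0% to 54.6%) lay in the last of 5 equal parts of the gene span, beside 49.5% of whole-cell windows and 23.1% of cytosolic ones. Within 500 bases of the 3′ end lay 65 (12.7%, 10.1% to 15.9%), beside 13.7% of whole-cell and 3.77% of cytosolic windows. Only 4 (0.783%, 0.305% to 2.00%) lay within 500 bases of the 5′ end. The share at the 5′ end was 20.5% (940 of 4589 windows, 19.3% to 21.7%) in the whole-cell list and 5.78% (23 of 398, 3.88% to 8.52%) in the cytosolic list. Windows in the first of the 5 parts made up 8.81% of the mitochondrial, 28.2% of the whole-cell and 18.1% of the cytosolic list. Windows of 1 gene share their source, so these intervals cover counting error only.

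Genes with a window were highly expressed. Of the 1169 genes, 984 were in the expression table, which gives normalised read counts per gene. Their median control level was 1252 normalised reads, against 245.5 for the 15386 genes without a window. Tested genes were ranked by control level and cut into 10 groups of equal size. The share with a window was 1.05% in the lowest group, 10.6% in group 9 and 24.9% in the highest group (380 of 1526 genes). For the whole-cell list these shares were 9.11%, 71.0% and 80.4%, and for the cytosolic list 2.49%, 8.79% and 11.6%. Per kb of the gene's RefSeq span, a measure that counts introns too, the lowest and highest groups had 1.60% and 18.3% in the mitochondrial list. The median span was 29.3 kb for genes with a window and 30.0 kb for genes without. Among the 976 tested genes with a window, the highest signal value hardly followed the control level (Spearman -0.06, across genes).

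The most abundant RNAs stood on both sides. MT-RNR2, MT-RNR1, EEF1A1, XIST and MT-CO1 were the most highly expressed genes with a window. RN7SL2, RN7SL1, RN7SK, an overlapping entry named 7SK, and SNORD3A, small RNAs of the signal recognition particle, of transcription control and of rRNA processing, were the most highly expressed genes without one. RN7SL2 stood at 532274 ± 201683 normalised reads in control libraries (SD, n = 4) and had a window in the whole-cell list. At the other end, 47 genes with a window had a control mean under 50 normalised reads. The gene lists described above differ in level. The median control level was 3335 normalised reads for the hnRNP list, 1870 for the endoplasmic reticulum list and 15663 for the small ribosomal subunit, against 1327 for complex I and 2538 for complexes II to V. The complex I median falls in group 9, where 10.6% of genes had a window, and the others in the highest group, where 24.9% did. Beside that 24.9%, the shares were 44.8% for hnRNP, 32.6% for endoplasmic reticulum, 27.3% for small-subunit and 22.7% for complex II to V genes. List shares were not adjusted for level.

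**Figure D4:**
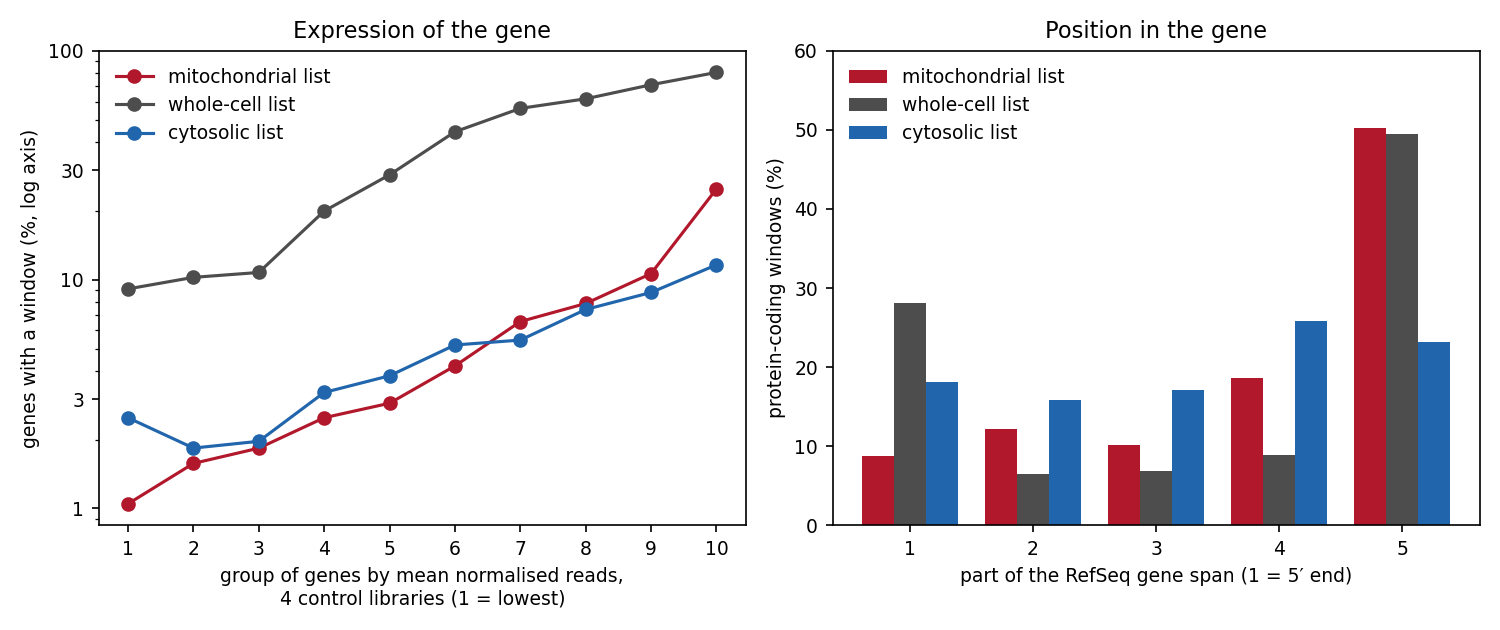
Left, percent of tested genes with a window in each list (log axis) for 10 groups of genes by mean control level, where the mitochondrial list reaches 24.9% in the highest group. Right, share of protein-coding windows in 5 equal parts of the gene span, where the mitochondrial list has 8.81% in the first part and 50.3% in the last.

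The siRNA arm asked whether RNAs of the mitochondrial list changed in whole cells with less hnRNPA1. A second siRNA or a rescue was not analysed here. In the bulk RNA of a culture, less RNA per cell and fewer cells of a kind cannot be told apart. Libraries held 17968459 to 20935045 normalised reads, of which 18% to 23.7% lay on mitochondrial genes. Of 11 marker genes of HEK293 cells 10 passed the minimum for testing, among them KRT8, an epithelial keratin gene, NEFL, a neurofilament gene, and VIM, an intermediate filament gene of mesenchymal cells. No marker of lymphocytes, fibroblasts or endothelium had a window, and 5 of 22 passed the minimum for testing.

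The siRNA target HNRNPA1 had 6506, 6413, 7185 and 5306 normalised reads in hnRNPA1_siRNA libraries 1 to 4, against 18637, 20403, 18614 and 19348 in control_siRNA libraries 1 to 4. The groups were far apart, and the log2 fold change was -1.61 (SE 0.09, limma adjusted p = 2.2e-06). Of the 976 tested genes with a window, 28 (2.87%) passed an adjusted p under 0.05 by limma, 20 higher and 8 lower, where 1.65% of all genes tested passed (0.675% higher and 0.976% lower). HNRNPA1 and its copies HNRNPA1L3 and HNRNPA1P7 are among the 8 lower genes. Genes with a whole-cell window passed in 2.17% of cases and genes with a cytosolic window in 2.79%. Genes with a mitochondrial-list window were more highly expressed than those without, and none of these shares was adjusted for level. The median log2 fold change of the 976 genes was 0.04, against 0.00 over all genes tested. Scaled by the total outside the mitochondrial genes, 7 of the 976 passed (0.717%), 3 higher and 4 lower, beside 0.588% of all genes tested. The log2 fold changes of the 28 genes moved by at most 0.000132 under this scaling, while their median SE was 0.109, against 0.0969 without it.

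HNRNPA1 and its copy HNRNPA1L3 (-1.43) had the largest falls, followed by AMH (-1.24), the gene of anti-Müllerian hormone, and by HNRNPA1P7 (-1.11). HNRNPA1L3 had 46.1, 43.4, 60.5 and 25.6 normalised reads in hnRNPA1_siRNA libraries 1 to 4, against 100.4, 136.2, 106.9 and 119.4 in control_siRNA libraries 1 to 4, and the pseudogene HNRNPA1P7 averaged 25 ± 3.60 normalised reads in hnRNPA1_siRNA and 55.1 ± 7.12 in control_siRNA libraries (SD, n = 4 each). Reads of these near-identical genes may come from HNRNPA1, so their values are uncertain. MTF2, a chromatin protein gene of Polycomb complex, fell to 999.1 ± 146.1 in hnRNPA1_siRNA libraries, against 1470 ± 56.2 in control_siRNA libraries (log2 fold change -0.57, SE 0.09, limma adjusted p = 0.0102). CCND1, the cyclin D1 gene (-0.56), ZDHHC20 (-0.41) and OSTM1 (-0.30) fell as well.

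The rises were small. SUMF2, which encodes a protein of the endoplasmic reticulum related to the sulfatase-modifying factor, had 1248, 1566, 1478 and 1414 normalised reads in hnRNPA1_siRNA libraries 1 to 4, against 1018, 1011, 1008 and 971.3 in control_siRNA libraries 1 to 4. All its hnRNPA1_siRNA libraries lay above all its control_siRNA libraries (log2 fold change 0.50, SE 0.08, limma adjusted p = 0.0072). TNS2-AS1 (0.87), RPS16 (0.66), IRS4-AS1 (0.62), the tRNA synthetase genes AARS1 (0.61) and MARS1 (0.45), the myosin gene MYH9 (0.57), TRRAP (0.56), the ubiquitin ligase gene HUWE1 (0.56) and TACC3 (0.45) made up the rest of the 10 largest rises with SUMF2, where AARS1 and MARS1 are named as a pair after their values were seen. All 28 genes had groups that did not overlap, as did 11.6% of all genes tested. The median size of the 28 changes was 1.39-fold, and 8 passed 1.5-fold. Of the 28, 5 kept their call in all 12 alternative settings, namely HNRNPA1, HNRNPA1L3, HNRNPA1P7, SUMF2 and MTF2.

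Few of the 28 genes belong to the groups above. By limma 0 of the 29 tested nuclear genes of mitochondrial proteins with a window passed, and 4 (13.8%) had an unadjusted p under 0.05. Over all genes tested 1.65% passed and 19.2% had an unadjusted p under 0.05, and the small counts here do not set a group apart from these shares. RPS16 was the 1 of 17 ribosomal protein genes with a window that passed, and MYH9 the 1 of 11 cytoskeleton genes. HNRNPA1 and HNRNPA1L3 were the 2 of 13 hnRNP genes and EWSR1 (0.33) the 1 of 10 stress granule genes, and 0 of the 14 genes of the endoplasmic reticulum list with a window passed by limma (1 had an unadjusted p under 0.05). Of the 243 tested genes in the mitochondrial list alone, 4 passed (1.65%).

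**Figure D5:**
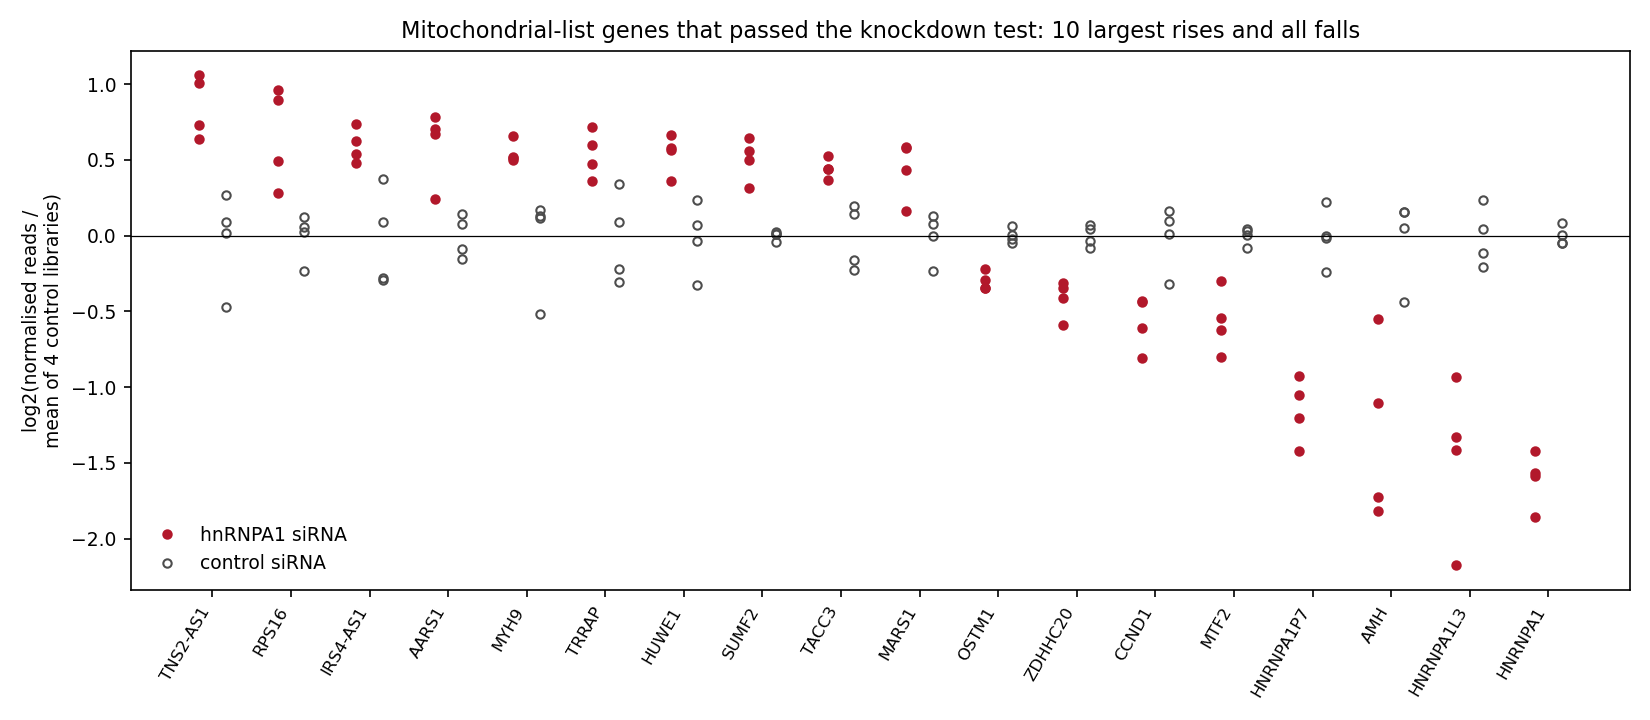
Normalised reads in each library relative to the mean of the 4 control_siRNA libraries, on the log2 scale, for the 10 largest rises and the 8 falls among the 28 genes with a mitochondrial-list window that passed the test, hnRNPA1_siRNA (filled) left of control_siRNA (open) for each gene. Of the 28 genes, 20 lay above the control libraries and 8 below, and HNRNPA1 had the largest fall.

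By limma 0 of the 9 mRNA genes of the mitochondrial chromosome with a window passed, and 0 had an unadjusted p under 0.05, where 1.65% and 19.2% of all genes tested did. MT-RNR1 stood at 453858, 395560, 328327 and 274585 normalised reads in hnRNPA1_siRNA libraries 1 to 4, against 385438, 315225, 355973 and 314153 in control_siRNA libraries 1 to 4. The groups overlapped (ratio 1.06 between the group means, two-sided exact permutation p = 0.629). The ratio for MT-RNR2 was 0.862 (exact permutation p = 0.20), where 4 libraries against 4 can give no p below 0.0286. MT-ND2 had 2577, 2015, 1033 and 1066 normalised reads in hnRNPA1_siRNA libraries 1 to 4, against 1637, 1709, 1647 and 1293 in control_siRNA libraries 1 to 4, so that 2 libraries lay above and 2 below the controls. MT-CO1 was split in the same way, at 85791, 81356, 40638 and 39731 in hnRNPA1_siRNA libraries 1 to 4, against 58790 to 73298 in control_siRNA libraries. All mRNA genes of the chromosome but MT-ND6 were higher in hnRNPA1_siRNA libraries 1 and 2 than in libraries 3 and 4. The cause was not tested. MT-ND5 had a log2 fold change of -0.05 and MT-CO1 of -0.17, which are averages over these unlike libraries. A change smaller than this spread was not detectable.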

How the data were processed

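The genes and gene lists described here were chosen with earlier results of these data known. Per the file headers, each deposited peak list gives a signal score, a p-value, a q-value and a constant score of 1000 per window. Its name points to CLAM as the caller, and its version, build and use of the IgG libraries are not stated. Of the nuclear windows with a RefSeq gene, 558 of 1456 (38.3%), and all 30 mitochondrial ones, started a multiple of 500 bases from that gene's start in GRCh38.p14, where 0.2% would by unrelated numbering. Coordinates are therefore read as GRCh38 and printed as listed. Names came from the lists' gene IDs, and 144 genes kept the ID.

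The deposited values of the siRNA arm are a signal of at least 0 per gene and library, taken here as normalised read counts. The submitters' processing notes name the tools DESeq2, Partek and STAR 2.7.8a and the build hg38, without their roles. In each library 82.7% to 84.4% of values were whole multiples of 1 step (tolerance 0.02), so they were not treated as counts. limma 3.58.1 (R 4.3.3, trend, unpaired, Benjamini-Hochberg adjustment) was run on log2(value + 1), which understates changes of low genes. Of 16382 entries it took the 15267 that reached 10 in 4 or more libraries. Levels by group of genes left out 12 entries listed a second time. In simulated data over 15267 genes, 78 of 100 genes with a 1.5-fold change and 96 of 100 with a 2-fold change were found, and 13 of 187 calls were false. The simulation drew independent normal noise with a spread smoothed on the mean level. It left out spread particular to a gene and shifts shared within a library, so these rates do not give the sensitivity of the real test.

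Windows were compared by at least 1 shared base on the same strand, and single values by two-sided exact permutation. Intervals are Wilson 95%. The text names genes with a window on the mitochondrial chromosome, those of the 10 highest signal values and the 10 largest window counts, up to 6 genes of each list by signal value, the 10 largest rises and falls in the knockdown among genes with a window, and the 5 most highly expressed genes with and without one. Alternatives were another pseudocount, no filter, the replicate block, rescaling, each library left out, stricter windows and other overlap rules. Levels per kb of span, and the omission of windows that overlap another on the opposite strand, were added after the files were seen. Figures were drawn with matplotlib 3.10.9. Results for some genes are not reported here.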

Additional observations from a re-analysis of the deposited data

Results flagged for a closer look

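Each group of 4 siRNA libraries was checked, for the 56 genes of the text that have expression values, for a library whose gap to its neighbour exceeds Dixon's 95% critical value. Of 112 groups 7 did, where chance gives about 1 in 20. MYH9 stood at 4633 normalised reads in hnRNPA1_siRNA library 4, against 4155 to 4207 in the other 3 of that group, and at 2051 in control_siRNA library 1, against 3182 to 3300 in the other 3 controls. EWSR1 stood at 3956 in control_siRNA library 1 and at 4459 to 4554 in the other 3 controls. TNFRSF10B stood at 1524 in control_siRNA library 2, with 1358 to 1375 in the others. In control_siRNA library 4, MT-CYB stood at 2142 normalised reads (2851 to 2952 in the other 3 controls), MT-ND4 at 2490 (3290 to 3392) and MT-ND4L at 369.6 (569.3 to 602.8). The rises of MYH9, EWSR1 and TNFRSF10B passed limma's test in the fit over all 8 libraries but not in every alternative setting.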

How the results depend on the processing

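The count of 28 genes with a window that passed in the knockdown was 27 with a pseudocount of 0.1, 26 without a filter and 7 after rescaling without mitochondrial genes. It ranged from 7 to 24 with 1 library left out. It was 7 without hnRNPA1_siRNA library 2, 7 without library 3 and 18 without library 4, and 11, 17 and 7 without control_siRNA libraries 1, 2 and 4. With the replicate number as a block it was 119, of which 86 were higher and 33 lower, and all 28 were among them, beside 1191 of all genes tested. The numbers were not taken as pairing, since same-numbered libraries correlated at 0.04 to 0.29 and 2 of 4 knockdown libraries correlated best with the control library of their number. Over 336 combinations of the 28 genes and 12 settings, 186 kept the call, 150 lost it and 0 changed direction. The cause was not tested.

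The ratio of MT-RNR1 ranged from 0.971 (without hnRNPA1_siRNA library 1, the 1 setting that turned its direction) to 1.15. With the replicate block MT-RNR2 was lower in all 4 pairs (ratio 0.855, exact permutation p = 0.125), the smallest p that 4 pairs allow. In the other settings neither rRNA passed, with p between 0.0857 and 0.857. Among windows with a q of at most 0.005, genes of the mitochondrial chromosome made up 3.20%, the most highly expressed group of genes had a window in 17.2% of cases, the median level was 1540 normalised reads, and 2.38% overlapped a cytosolic window. Identical windows in the whole-cell list were 10.0%. Per kb of span the highest group had 18.3%. Without windows that overlap another on the opposite strand the median level was 1297, against 1266 over the tested genes with a window. Classes otherwise kept their shares within the counting interval. Levels per kb of coding sequence and count-based tests were not run, for want of coding lengths and of whole reads. The RIP libraries have no depth here, which leaves window-level error unknown.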
